A study of Homo sapiens with 6 samples.

Results

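The genes described here encode the secreted and membrane-bound cues that steer growing axons and moving cells, and the receptors that read those cues: semaphorins, neuropilins, plexins, ephrins, Eph receptors, Slits, Robos, netrins and UNC5B. They were taken as 50 listed gene symbols, and every probe set annotated with one of these symbols was counted as theirs. By that rule 129 probe sets were found. Of these, 128 carried a single gene symbol and belonged to 49 genes, out of 19775 genes on the array. The remaining probe set names SEMA3B together with a microRNA gene and is given no value. EPHB2 was not analysed here. The cells were MCF10A, an immortalised line of human breast epithelium that does not form tumours. Cells were transfected with the mimic for both miR-221 and miR-222 (3 arrays, called mimic) or with miR-control (3 arrays, called control), and the labels describe the 3 arrays of a group as biological replicates. The sources used here do not give the dose, the duration of the transfection or which sequence served as miR-control. Values are log2 intensities normalized by RMA, which reduces the several probes of each probe set to 1 value per array. Where a gene has several probe sets it was read at the one whose mean over the 6 arrays was highest, called its brightest. A difference is mimic minus control on the log2 scale, so a change of 1 is 2-fold, and its error is limma's moderated standard error (SE).

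Guidance genes were first studied in the nervous system but are also active in epithelia and blood vessels. Secreted semaphorins bind neuropilins, which have short intracellular tails and signal through plexins, while most membrane-bound semaphorins bind plexins directly. Plexins act on small GTPases and so on the actin cytoskeleton and on integrin adhesion. Ephrins sit on the cell surface and bind Eph receptor tyrosine kinases on the neighbouring cell, and signals run into both cells. In breast epithelium this contact signalling is known for keeping cell layers apart and for shaping ducts. NRP1 and NRP2 are also co-receptors of vascular endothelial growth factors (VEGF).

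Mature 3p forms of miR-221 and miR-222 are shown because the stretch in capitals, the seed at bases 2 to 8, does most of the pairing with messenger RNAs. The sample titles do not say which arm the mimic copies, and the 3p forms were chosen here. The sequences are RefSeq's (GRCh38.p14), from neighbouring loci on the minus strand of the X chromosome, at chrX:45746180-45746202 for miR-221 and chrX:45747036-45747056 for miR-222.
hsa-miR-221-3p: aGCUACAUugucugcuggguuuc
hsa-miR-222-3p: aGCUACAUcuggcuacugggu
The first 8 bases are the same in both, and the seed is therefore shared.

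Array medians lay between 7.62 and 7.66 in the mimic group and between 7.59 and 7.64 in the control group, and pairs of arrays within a group correlated with r from 0.9953 to 0.998 across probe sets, which are not independent replicates. RNA quality was read as the gap between the 3' and 5' probe sets of control transcripts, in log2 units, which lay between 0.33 and 0.39 for ACTB in mimic and between 0.29 and 0.36 in control arrays (exact two-sided permutation p = 0.3). For GAPDH it lay between 0.02 and 0.04 in mimic and between -0.05 and 0.02 in control arrays, and no array of one group reached the other (exact p = 0.1, the smallest that 3 arrays against 3 allow). The part of this difference in the results was not tested. By limma at an adjusted p under 0.05, 30.4% of all genes passed, 16.3% lower and 14.1% higher in the mimic. Of 8 measured mammary epithelial markers, 7 fell and ITGA6 did not pass, at 12.44 in mimic and 12.45 in control arrays. The list's mean level lay between 11.19 and 11.27 in mimic and between 12.24 and 12.30 in control arrays. The basal keratin gene KRT14 fell by 2.23, and KRT5 by 1.73. EPCAM had a change of -1.54 and KRT18 of -0.996. SFN fell by 0.81, CDH1 by 0.56 and KRT8 by 0.55. Of markers of other cells, 2 of 8 fibroblast genes passed (DCN with a change of 1.66, LUM with -1.06), 0 of 7 endothelial genes (limma; EMCN alone had an unadjusted p under 0.05), 2 of 5 blood cell genes (CD14 with a change of -1.15, ITGAM with 0.21) and 1 of 6 neuronal genes (TUBB3, with a change of -0.58). LUM had -0.03 at a probe set without shared probes. ITGAM did not pass without mimic replicate 1 (adjusted p = 0.107), mimic replicate 2 (0.172), control replicate 1 (0.188) or control replicate 2 (0.121), nor under other settings (adjusted p = 0.0603 after quantile normalization, 0.0763 after median centring, 0.0578 with a trended robust prior and 0.0734 with probe sets averaged). The fibroblast list averaged 8.23 to 8.39 in mimic and 8.20 to 8.22 in control arrays, the endothelial list 7.24 to 7.42 in mimic and 7.16 to 7.27 in control arrays, the blood cell list 8.28 to 8.34 in mimic and 8.43 to 8.46 in control arrays, and the neuronal list 9.09 to 9.15 in mimic and 9.09 to 9.19 in control arrays. The part of these markers in the results below was not tested. In such bulk samples fewer cells with a transcript and less transcript per cell cannot be told apart.

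The comparison asked which of these cues and receptors differed between mimic and control transfections. The co-receptor gene NRP1 fell furthest, about 11-fold, followed by the ephrin gene EFNB2, nearly 3-fold, and the plexin gene PLXNC1. The ephrin gene EFNA4 rose most. Of the listed semaphorin genes, the ligands of neuropilins and plexins, SEMA3A alone passed at its brightest probe set. By limma with Benjamini-Hochberg adjustment over all 54613 probe sets, 16 of the 49 measured genes passed an adjusted p of 0.05, which is 32.7%, against 30.4% of all genes. Of the 16, 12 fell (16.3% of all genes did) and 4 rose (14.1% of all genes did). After a further quantile normalization the split was 11 lower and 6 higher. The median change of the 49 genes was -0.02, and that of all 19775 genes 0.03. The share that passed was near that of the whole array at the brightest probe sets, but with each gene read as the mean of its probe sets it was 44.9%, against 33.3% of all genes. Of the 4 that rose, 2 passed without mimic replicate 2, without mimic replicate 3 and without control replicate 1. Only NRP1 and EFNB2 fell by 2-fold or more (2.09% of all genes did). The 3 arrays of a group lay wholly on one side of the other 3 for 27 of the 49 genes, 18 with the mimic lower and 9 with it higher (45.6% of all genes). Among the 128 probe sets, 30 were lower and 14 higher in the mimic, and 24.8% of all probe sets passed. Of the 128, 6 were higher without mimic replicate 2, 9 without mimic replicate 3, 6 without control replicate 1 and 7 without control replicate 2.

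**Figure D1:**
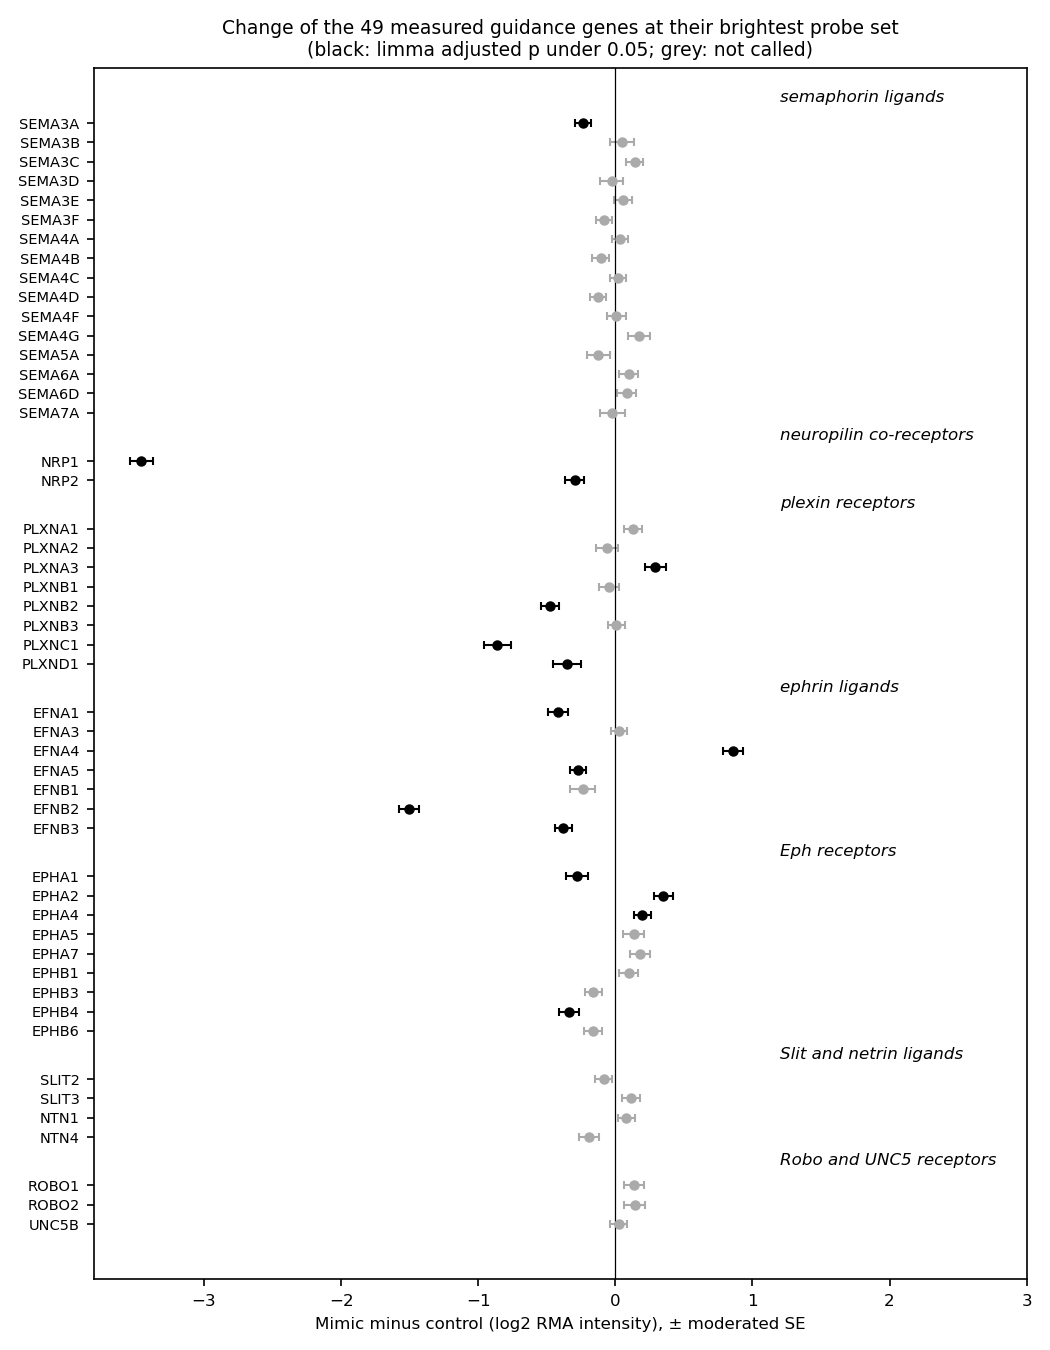
Change of each of the 49 measured genes at its brightest probe set (horizontal axis, mimic minus control in log2 units; bars are moderated SE), grouped by role. NRP1 at -3.46 and EFNB2 at -1.51 lie furthest left and EFNA4 at 0.86 furthest right, while the semaphorins lie between -0.24 and 0.17.

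NRP1 encodes neuropilin-1, the binding partner of secreted semaphorins and a co-receptor of VEGF. At its brightest probe set, 212298_at, NRP1 read 6.53, 6.76 and 6.85 in mimic arrays, against 10.16, 10.12 and 10.23 in control arrays. All 3 mimic arrays were low and the gap between the groups was many times their spread. NRP1 averaged 6.71 ± 0.17 in mimic and 10.17 ± 0.06 in control arrays (SD, n = 3 each), a change of -3.46 ± 0.08 (SE; adjusted p = 1.1e-09), and it ranked 4th from the lowest change among 19775 genes. The mimic level lay below the array medians. No detection calls were used, so whether it lies above background is not known.

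The 4 probe sets of NRP1 did not give the same change. At 210510_s_at, NRP1 read 6.89, 7.22 and 6.77 in mimic and 8.14, 8.40 and 8.03 in control arrays, a change of -1.23 ± 0.12 (SE; adjusted p = 1.7e-05). The groups did not overlap there either. At 210615_at the values were 6.44, 6.58 and 6.15 in mimic and 6.38, 6.36 and 6.36 in control arrays (change 0.02, adjusted p = 0.892). At 1561365_at they were 4.52, 4.61 and 4.37 in mimic and 4.70, 4.597 and 4.80 in control arrays (change -0.20, adjusted p = 0.0945). These last probe sets were dim in both groups and did not pass. The change at 212298_at was lower than at the others, with a difference of -2.23 from 210510_s_at, -3.48 from 210615_at and -3.25 from 1561365_at. In each of these comparisons the within-array differences of the mimic arrays all lay below those of the control arrays (exact two-sided permutation p = 0.1 each, the smallest possible with 3 arrays against 3).

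**Figure D2:**
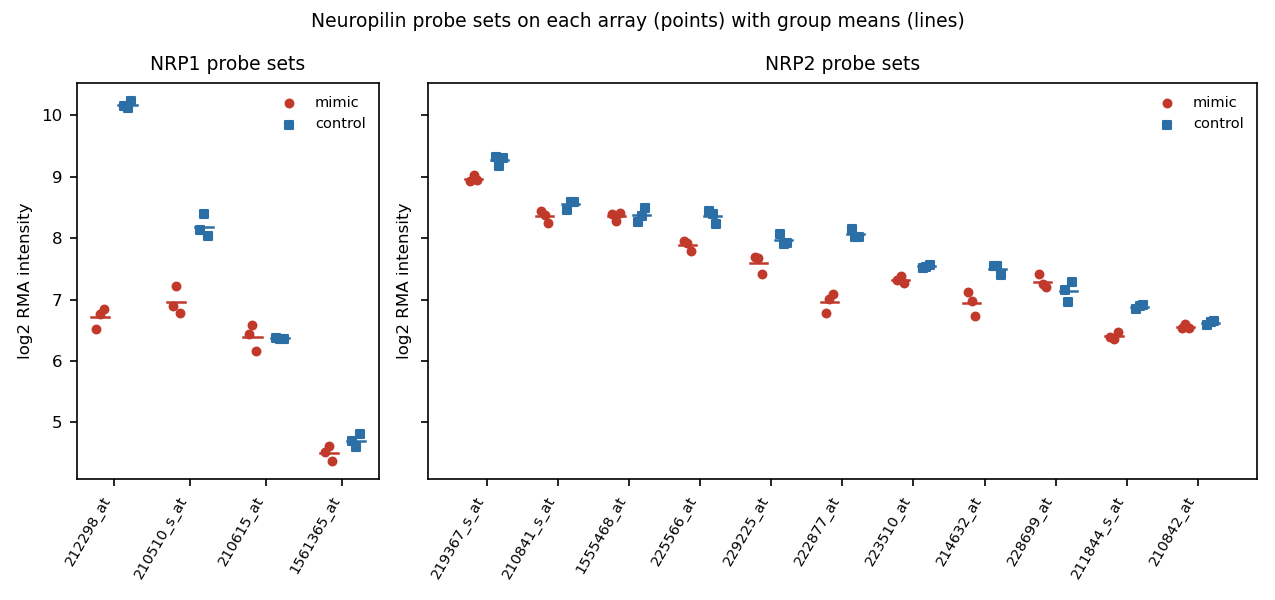
Log2 intensity of the 4 NRP1 (left) and 11 NRP2 (right) probe sets on each array, mimic as circles left of control as squares, with group means as lines. The groups are far apart for NRP1 at 212298_at (6.71 in the mimic, 10.17 in the control) and for NRP2 at 222877_at (6.96 and 8.06), and meet at the dimmest NRP1 probe sets.

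NRP2, the related neuropilin that binds SEMA3F and VEGFC, fell less. At its brightest probe set NRP2 read 8.93, 9.03 and 8.94 in mimic, against 9.32, 9.17 and 9.31 in control arrays, without overlap. The change was -0.30 ± 0.07 (SE; adjusted p = 0.00672). Of its 11 probe sets, 7 fell, 4 did not pass and none rose (limma; 0 rises also at an unadjusted p under 0.05). At 222877_at NRP2 read 6.78, 7.002 and 7.09 in mimic and 8.15, 8.02 and 8.02 in control arrays, a change of -1.11 ± 0.08 (SE; adjusted p = 2.9e-06). This was the largest fall among the NRP2 probe sets, and the remaining values that passed lay between -0.56 and -0.21. At 214632_at NRP2 read 7.12, 6.98 and 6.74 in mimic, against 7.55, 7.55 and 7.40 in control arrays (change -0.56). At 211844_s_at the mimic arrays gave 6.40, 6.36 and 6.47 and the control arrays 6.85, 6.89 and 6.91 (change -0.48). At 225566_at the mimic arrays gave 7.95, 7.91 and 7.80 and the control arrays 8.45, 8.39 and 8.22 (change -0.47). The groups did not overlap at any of these 3. At 229225_at the mimic arrays read 7.69, 7.67 and 7.42, against 8.07, 7.91 and 7.92 in the control (change -0.37). At 223510_at the mimic arrays read 7.32, 7.38 and 7.27, against 7.52, 7.53 and 7.57 in the control (change -0.21). All mimic arrays were again lower. Of the 4 that did not pass, 210841_s_at read 8.45, 8.37 and 8.24 in mimic and 8.46, 8.60 and 8.59 in control arrays, without overlap. NRP2 at 228699_at read 7.42, 7.25 and 7.20 in mimic and 7.16, 6.97 and 7.29 in control arrays. NRP2 at 210842_at read 6.54, 6.60 and 6.54 in mimic and 6.58, 6.63 and 6.65 in control arrays. The groups overlapped at both. Read at its brightest probe set without a suffix that marks shared probes, 1555468_at, NRP2 had 8.40, 8.28 and 8.41 in mimic and 8.26, 8.37 and 8.49 in control arrays, a change of -0.01 (adjusted p = 0.944).

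Semaphorins are the ligands of neuropilins and plexins. Of the 16 measured semaphorin genes, SEMA3A fell, 15 did not pass and none rose (limma, 0 rises also at an unadjusted p under 0.05 other than SEMA3C, at 0.0476). Over all genes, 30.4% passed. SEMA3A, the secreted semaphorin that collapses growth cones through NRP1, averaged 6.75 ± 0.04 in mimic and 6.99 ± 0.04 in control arrays (SD, n = 3 each), a change of -0.24 ± 0.06 (SE; adjusted p = 0.0132). The groups did not overlap, but the level lay below the array medians. SEMA3A did not pass without mimic replicate 2 (adjusted p = 0.071) or without control replicate 1 (0.0506). SEMA3C, a secreted semaphorin that signals through neuropilins and PLXND1, read 13.27 ± 0.05 in mimic and 13.13 ± 0.06 in control arrays, a change of 0.14 ± 0.06 (SE; adjusted p = 0.138). Its groups did not overlap, and with a trended robust prior SEMA3C passed as higher (limma adjusted p = 0.0219). SEMA3F, which binds NRP2, had a change of -0.08 ± 0.06 (adjusted p = 0.366). SEMA3B, SEMA3D and SEMA3E had changes of 0.05, -0.03 and 0.06.

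The listed membrane-bound and GPI-anchored semaphorins did not pass at their brightest probe sets either. SEMA6C, not among those listed, rose and is given further below. SEMA4A, SEMA4B, SEMA4C, SEMA4F and SEMA4G had changes of 0.04, -0.11, 0.02, 0.01 and 0.17, SEMA5A one of -0.12, and SEMA6A and SEMA6D changes of 0.10 and 0.08, none of which passed. SEMA4G passed as higher without control replicate 3 (limma adjusted p = 0.0482), and SEMA6D with probe sets averaged (0.033). Another probe set rose for 4 genes, however. For SEMA4D, which binds PLXNB1, the change was -0.13 ± 0.06 (adjusted p = 0.157) at the brightest probe set and 0.44 ± 0.09 (adjusted p = 0.00324) at 228891_at, which read 7.61 ± 0.13 in mimic and 7.17 ± 0.14 in control arrays (SD, n = 3 each). For SEMA7A, the GPI-anchored ligand of PLXNC1, the change was -0.02 at the brightest probe set and 0.23 ± 0.07 at 210083_at (adjusted p = 0.0252). SEMA6D rose by 0.29 at 226492_at (adjusted p = 0.0335) and SEMA6A by 0.24 at 1558338_at (adjusted p = 0.0235). The other 4 probe sets of SEMA6D and the other 4 of SEMA6A did not pass. Each of the 4 probe sets that rose had a mean over all arrays below the lowest array median, 7.59. Whether the probe sets of these 4 genes differ in their change was not tested.

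Plexins carry the semaphorin signal into the cell. Of the 8 listed plexin genes, 3 fell, PLXNA3 rose and 4 did not pass (30.4% of all genes passed). PLXNC1, the receptor of SEMA7A, read 7.08, 7.45 and 7.34 in mimic, against 8.19, 8.01 and 8.26 in control arrays. The mimic arrays were all lower, and the change was -0.86 ± 0.10 (SE; adjusted p = 6.3e-05), or 1.82-fold higher in the control. Of its other probe sets, 206470_at (-0.33) and 206471_s_at (-0.18) fell as well, and 235328_at did not pass, at 0.01. PLXNB2, a receptor for class 4 semaphorins in epithelia, averaged 11.58 ± 0.08 in mimic and 12.06 ± 0.04 in control arrays (SD, n = 3 each), a change of -0.47 ± 0.07 (adjusted p = 2.6e-04). Its other probe set, 211472_at, did not pass, at 0.09. PLXND1, a receptor of SEMA3E and SEMA3C, fell by 0.35 ± 0.10 (SE; adjusted p = 0.026), with a change of -0.51 ± 0.08 at a second probe set (adjusted p = 6.7e-04). Its remaining probe set, 1563657_at, had a mean of 8.76, near the 8.82 of the brightest, and did not pass, at 0.05. At the brightest probe set PLXND1 did not pass without mimic replicate 2 (adjusted p = 0.115), control replicate 1 (0.0612) or control replicate 2 (0.107), nor after a further quantile normalization (0.0618).

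PLXNA3, a partner of neuropilins, rose by 0.29 ± 0.08 (SE; adjusted p = 0.018), with 9.63 ± 0.12 in mimic and 9.34 ± 0.09 in control arrays (SD, n = 3 each), and by 0.28 at a second probe set. Its remaining probe set, 1567519_at, did not pass, at 0.02. PLXNA3 did not pass without mimic replicate 2 (adjusted p = 0.0552), mimic replicate 3 (0.0572), control replicate 1 (0.0674) or control replicate 2 (0.0781). PLXNA1 (0.13), PLXNA2 (-0.06), PLXNB1 (-0.04) and PLXNB3 (0.01) did not pass. After a further quantile normalization PLXNA1 passed as higher (change 0.19, adjusted p = 0.0288).

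**Figure D3:**
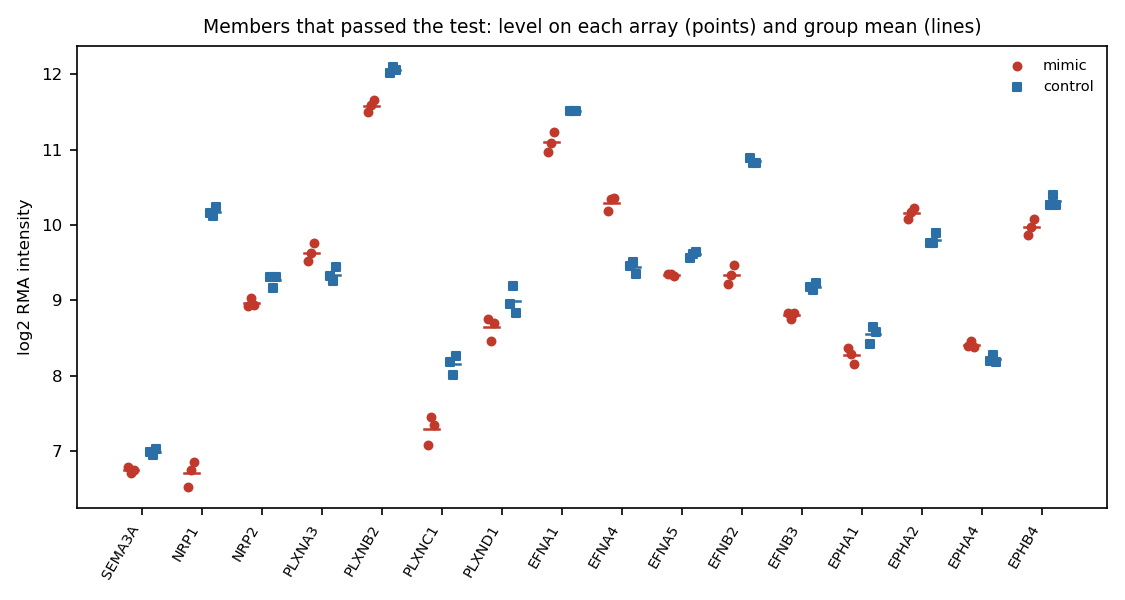
Log2 intensity on each array of the 16 genes that passed the test, mimic as circles left of control as squares, with group means as lines. The groups do not overlap for any of the 16, and the gap is widest for NRP1 (6.71 in the mimic, 10.17 in the control) and EFNB2 (9.34 and 10.85).

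Ephrins are the membrane-bound ligands of Eph receptors: the A class is held by a lipid anchor and the B class spans the membrane. Of the 7 listed ephrin genes, 4 fell, EFNA4 rose and 2 did not pass (30.4% of all genes passed). EFNA2, not among those listed, rose and is given further below. EFNB2, the ligand of EPHB4 and an arterial marker in vessels, read 9.22, 9.33 and 9.47 in mimic, against 10.89, 10.83 and 10.82 in control arrays. The groups were far apart, and the change was -1.51 ± 0.07 (SE; adjusted p = 8.2e-08), or 2.84-fold higher in the control. The second EFNB2 probe set gave a close value, -1.52 ± 0.06 (SE; adjusted p = 3.3e-08), with 8.06, 8.11 and 8.15 in mimic and 9.67, 9.67 and 9.54 in control arrays. The difference between the changes at both probe sets was 0.015 (exact two-sided permutation p = 0.8).

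EFNA4, a lipid-anchored ephrin with 1 probe set here, read 10.19, 10.34 and 10.36 in mimic, against 9.46, 9.51 and 9.35 in control arrays. All mimic arrays were higher, and the change was 0.86 ± 0.07 (SE; adjusted p = 5.8e-06), or 1.81-fold higher. EFNA1, the ligand of EPHA2, moved the other way, with 11.10 ± 0.14 in mimic and 11.51 ± 0.0036 in control arrays (SD, n = 3 each), a change of -0.42 ± 0.07 (SE; adjusted p = 0.00156). EFNA3 had a change of 0.03 ± 0.06 (SE; adjusted p = 0.803). EFNA4, EFNA3 and EFNA1 follow each other on chromosome 1 of the RefSeq annotation, in that order and on 1 strand, with no other protein-coding gene between them except the read-through gene EFNA4-EFNA3. One of the 3 neighbours thus rose, one did not pass and one fell. The suffix s_at of the EFNA4 probe set marks probes shared between transcripts, so EFNA4 and read-through transcripts cannot be told apart here.

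EFNB3 fell by 0.38 ± 0.06 (SE; adjusted p = 7.9e-04), with 8.80 ± 0.05 in mimic and 9.18 ± 0.05 in control arrays (SD, n = 3 each). Its x_at probe set, which can bind several transcripts, did not pass, at 0.06. EFNA5 fell at 3 of its 4 probe sets. At the brightest it read 9.34 ± 0.02 in mimic and 9.61 ± 0.04 in control arrays, a change of -0.27 ± 0.06 (SE; adjusted p = 0.00565), and at 233814_at and 227955_s_at the changes were -0.57 and -0.65. The fourth EFNA5 probe set, 207301_at, was dim in both groups and did not pass, at 0.07. EFNB1 had a change of -0.24 ± 0.09 (SE) and did not pass (adjusted p = 0.0801). It passed as lower with arrays centred on their medians (adjusted p = 0.0421), with probe sets averaged (0.0468) and without control replicate 1 (0.0273).

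The promoter windows of the 3 neighbouring ephrin genes and of EFNB2 are shown to let their sequences be set beside their changes, which differed in direction. Each runs from 250 bases before to 50 bases after the annotated start, 5′ to 3′, from RefSeq (GRCh38.p14): chr1:155063490-155063789 (plus strand) for EFNA4, chr1:155078587-155078886 (plus) for EFNA3, chr1:155127626-155127925 (plus) for EFNA1 and chr13:106535613-106535912 (minus) for EFNB2. Capitals mark the GC box GGGCGG on either strand, the letters bound by Sp1-type factors.
EFNA4: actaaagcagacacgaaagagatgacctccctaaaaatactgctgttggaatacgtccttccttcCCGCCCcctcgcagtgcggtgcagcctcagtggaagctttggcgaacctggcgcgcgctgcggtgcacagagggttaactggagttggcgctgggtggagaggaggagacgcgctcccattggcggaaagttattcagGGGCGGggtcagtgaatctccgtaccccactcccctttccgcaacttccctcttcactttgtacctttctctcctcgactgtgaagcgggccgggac
EFNA3: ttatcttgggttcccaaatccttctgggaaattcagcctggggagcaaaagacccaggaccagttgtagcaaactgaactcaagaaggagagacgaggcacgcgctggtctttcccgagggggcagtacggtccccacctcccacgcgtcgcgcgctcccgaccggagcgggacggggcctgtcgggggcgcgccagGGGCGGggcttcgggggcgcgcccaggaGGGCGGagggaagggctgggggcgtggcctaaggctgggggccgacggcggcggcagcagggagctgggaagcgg
EFNA1: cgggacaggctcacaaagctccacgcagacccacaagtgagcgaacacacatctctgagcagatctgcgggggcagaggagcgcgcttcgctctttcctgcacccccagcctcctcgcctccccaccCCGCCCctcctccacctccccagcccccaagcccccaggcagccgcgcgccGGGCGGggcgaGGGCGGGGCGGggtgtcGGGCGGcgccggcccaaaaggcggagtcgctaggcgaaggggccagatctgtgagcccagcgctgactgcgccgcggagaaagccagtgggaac
EFNB2: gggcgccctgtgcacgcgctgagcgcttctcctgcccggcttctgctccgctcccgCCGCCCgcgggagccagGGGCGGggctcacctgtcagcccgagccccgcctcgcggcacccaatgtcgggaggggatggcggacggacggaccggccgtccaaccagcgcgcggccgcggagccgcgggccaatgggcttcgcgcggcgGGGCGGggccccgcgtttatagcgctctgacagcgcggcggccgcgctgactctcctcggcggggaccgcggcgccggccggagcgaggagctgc
The GC box occurred 2 times in the EFNA4, 2 times in the EFNA3, 5 times in the EFNA1 (where 2 of them overlap by a base) and 3 times in the EFNB2 window. The letters CCAAT, searched on both strands, occurred 1 time for EFNA4 and 2 times for EFNB2, and were not found in the windows of EFNA3 and EFNA1. TATAAA, on both strands, occurred 1 time for EFNB2 and not in the other windows. The share of G and C was 58.3% for EFNA4, 69.3% for EFNA3, 71.7% for EFNA1 and 78.7% for EFNB2, against a median of 58.7% over all 35116 windows. Over the 71 windows of the 44 listed genes found in the table, GGGCGG was present in 74.6% (45% of all windows), CCAAT in 31% (34.6%), TATAAA in 4.23% (11.5%) and CACGTG, searched as a palindrome, in 4.23% (7.26%). In the 4 windows shown no match of one motif overlapped a match of another, and a match is a description of sequence only.

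Eph receptors are the receptor tyrosine kinases that bind ephrins. Of the 9 listed Eph genes that were measured, EPHA2 and EPHA4 rose, EPHA1 and EPHB4 fell, and 5 did not pass (30.4% of all genes passed). EPHA2, the main Eph receptor of many epithelial cells and the receptor of EFNA1, read 10.08, 10.17 and 10.22 in mimic, against 9.76, 9.76 and 9.89 in control arrays, without overlap. The change was 0.35 ± 0.07 (SE; adjusted p = 0.00275), while its ligand gene EFNA1 fell. EPHB4, the receptor of EFNB2, fell by 0.34 ± 0.07 (SE; adjusted p = 0.00483), with 9.97 ± 0.10 in mimic and 10.31 ± 0.07 in control arrays (SD, n = 3 each). Its second probe set did not pass, at -0.15.

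EPHA4, a receptor of both ephrin classes, rose at each of its 5 probe sets, and it was with EFNB2 the only gene of several probe sets for which every one passed in 1 direction. At the brightest the change was 0.20 ± 0.06 (SE; adjusted p = 0.0382), which did not pass without mimic replicate 2 (adjusted p = 0.156), mimic replicate 3 (0.0544), control replicate 1 (0.131) or control replicate 3 (0.1), nor with arrays centred on their medians (0.098). At 227449_at the change was larger, 0.75 ± 0.11 (SE; adjusted p = 3.8e-04), with 8.09, 8.20 and 8.51 in mimic and 7.54, 7.35 and 7.66 in control arrays. The remaining EPHA4 probe sets had changes from 0.24 to 0.30. EPHA1 fell by 0.28 ± 0.08 (SE; adjusted p = 0.0254), and by 0.66 ± 0.09 at 241482_at (adjusted p = 1.8e-04). At the brightest probe set EPHA1 did not pass without mimic replicate 2 (adjusted p = 0.0664), mimic replicate 3 (0.0769), control replicate 2 (0.107) or control replicate 3 (0.0689). A further EPHA1 probe set, 215804_at, had a change of 0.05 and did not pass.

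The listed Eph genes that did not pass were EPHA5 (change 0.13), EPHA7 (0.18), EPHB1 (0.10), EPHB3 (-0.16) and EPHB6 (-0.16). With array weights EPHB3 (limma adjusted p = 0.0286) and EPHB6 (0.0158) passed as lower, and EPHB3 also with probe sets averaged (0.00357). EPHB3 fell at its second probe set, 1438_at, by 0.31 ± 0.06 (SE; adjusted p = 0.0023), with 8.94 ± 0.04 in mimic and 9.25 ± 0.02 in control arrays (SD, n = 3 each). EPHA5 and EPHA7 lay below the array medians in both groups.

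Slits bind Robo receptors, and netrins bind DCC, neogenin and UNC5 receptors. ROBO3 and the neogenin gene NEO1 were not among those listed, and their falls are given further below. None of the 7 listed Slit, Robo, netrin and UNC5 genes passed at its brightest probe set by limma (30.4% of all genes passed). NTN4, with a change of -0.19 ± 0.07 (SE; adjusted p = 0.0837), was the 1 with an unadjusted p under 0.05 (0.0241). With probe sets averaged, SLIT2 (change -0.33, adjusted p = 6.6e-04), NTN1 (0.16, 0.0387) and NTN4 (-0.19, 0.043) did pass. NTN4 also passed with array weights (adjusted p = 0.0389), and ROBO1 after a further quantile normalization (change 0.19, adjusted p = 0.0392). SLIT3 had a change of 0.11, ROBO1 0.13, ROBO2 0.14 and UNC5B 0.03. SLIT2, the best known repellent ligand of Robo receptors, had a change of -0.09 ± 0.06 (SE; adjusted p = 0.377) at the brightest probe set. At 230130_at SLIT2 read 6.87 ± 0.16 in mimic and 7.54 ± 0.14 in control arrays (SD, n = 3 each), a fall of 0.67 ± 0.09 on the log2 scale (SE; adjusted p = 2.9e-04), and it also fell at 228850_s_at, by 0.22. NTN1, the founding netrin, had a change of 0.08 at its brightest probe set and rose by 0.32 ± 0.06 (SE; adjusted p = 0.00266) at 227816_at. The group means of NTN1 at both probe sets, and of SLIT2 at 230130_at and 228850_s_at, lay below the lowest array median, 7.59.

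Several probe sets read 37 of the genes, and in 0 of these did limma call one of them higher and a different one lower at the adjusted threshold. For 7 of them the brightest probe set did not pass while another did: SEMA4D, SEMA6A, SEMA6D, SEMA7A, EPHB3, SLIT2 and NTN1. For 17 no probe set passed, and for 2, EFNB2 and EPHA4, all did. Over the whole array 24.8% of probe sets passed. The same counts over all genes with several probe sets are not given, so these are not read as particular to the listed genes. The mean of 10 of the 49 genes lay below the lowest array median, 7.59, as did that of 6418 of all 19775 genes. Below it lay 3 of 8 fibroblast, 4 of 7 endothelial, 2 of 5 blood cell and 0 of 6 neuronal markers. That median is not a detection limit, so whether a gene is expressed is not known on either side of it.

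**Figure D4:**
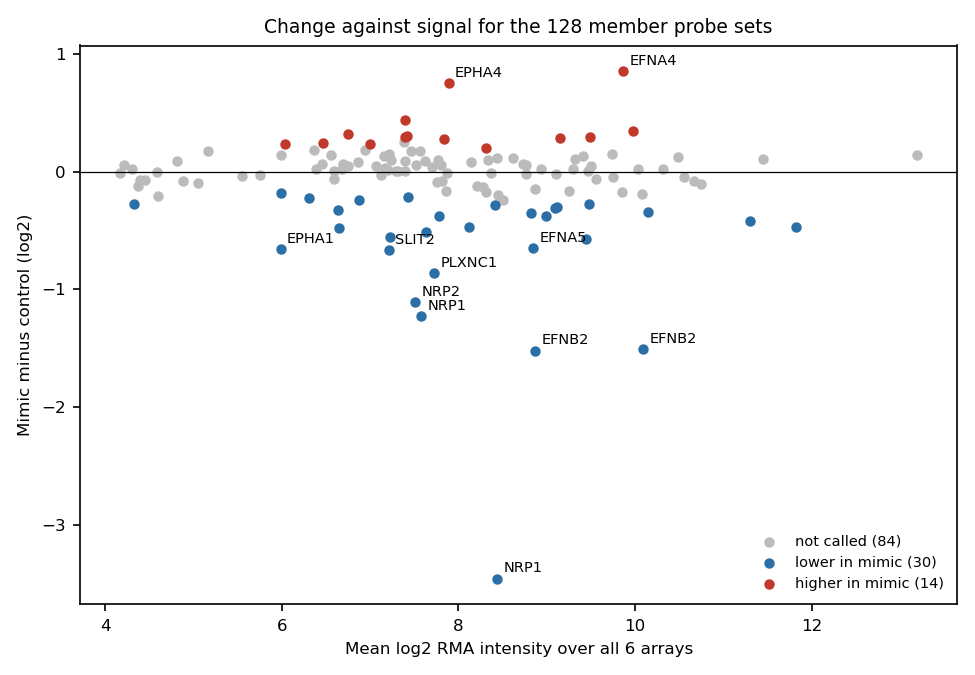
Change (vertical axis, mimic minus control, log2) against mean log2 intensity over the 6 arrays for each of the 128 probe sets, coloured by call: 14 higher, 30 lower and 84 not called. NRP1 at -3.46 stands apart, both EFNB2 probe sets lie together near -1.5, and the largest rise is EFNA4 at 0.86.

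Of 24 further measured genes of these families, not among the 50, 2 fell, 2 rose and 20 did not pass. The share that passed was 16.7%, against 30.4% of all genes, and the median change was 0.02, against 0.03 over all genes. NEO1, which encodes the netrin and RGM receptor neogenin, averaged 9.65 ± 0.08 in mimic and 10.03 ± 0.04 in control arrays (SD, n = 3 each) and fell by 0.38 ± 0.07 on the log2 scale (SE; adjusted p = 0.00127). ROBO3 fell by 0.35 ± 0.07 (SE; adjusted p = 0.00326). EFNA2 rose by 0.26 (adjusted p = 0.0145), and did not pass without mimic replicate 2 (adjusted p = 0.0627) or control replicate 1 (0.0726). With all its probe sets averaged, EFNA2 had a change of 0.04 (adjusted p = 0.657). SEMA6C rose by 0.25 (adjusted p = 0.0414), and did not pass without mimic replicate 1 (0.115), mimic replicate 3 (0.0779), control replicate 1 (0.18) or control replicate 2 (0.0569), nor after a further quantile normalization (0.0533) or median centring (0.0567).

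Of 11 measured VEGF ligands and partners of neuropilins and plexins, 4 fell, 2 rose and 5 did not pass (54.5% called, against 30.4% of all genes; median change 0.005). KDR, the VEGF receptor that NRP1 assists, read 7.70, 7.93 and 7.87 in mimic, against 9.44, 9.49 and 9.01 in control arrays, a change of -1.48 ± 0.12 on the log2 scale (SE; adjusted p = 3.5e-06). The ligand gene VEGFC fell by 0.53 and VEGFA by 0.43. MET, the receptor of hepatocyte growth factor and a partner of plexin B receptors, read 12.86, 12.93 and 13.09 in mimic, against 11.84, 11.81 and 11.76 in control arrays, and rose by 1.15 ± 0.07 on the log2 scale (SE; adjusted p = 5.8e-07).

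Of 34 measured intracellular mediators, 11 fell, 7 rose and 16 did not pass (52.9% called, against 30.4% of all genes). Their median change was 0.005. MICAL2, an actin-oxidising enzyme related to the plexin partner MICAL1, averaged 9.11 ± 0.20 in mimic and 10.68 ± 0.13 in control arrays (SD, n = 3 each) and fell by 1.58 ± 0.10 on the log2 scale (SE; adjusted p = 7.9e-07). CHN1, a Rac regulator downstream of EPHA4 in mouse neurons, fell by 1.55 ± 0.07 (SE; adjusted p = 6.5e-08), and LIMK2, a kinase that inactivates cofilin, by 0.94 ± 0.07 (adjusted p = 1.3e-06). DPYSL3, of the family that relays the SEMA3A signal, averaged 8.56 ± 0.07 in mimic and 7.31 ± 0.04 in control arrays and rose by 1.24 ± 0.06 (SE; adjusted p = 1.4e-07). That rise holds for its brightest probe set, and a probe set without shared probes had a change of -0.07. Of 10 genes of shedding and clearance at the cell surface, 4 fell and 1 rose (50% called, against 30.4% of all genes). Their median change was -0.02. SDC1, a heparan sulphate proteoglycan, fell by 0.81 (adjusted p = 1.0e-05), ADAM17, a membrane protease that sheds receptors and ligands, by 0.72 (adjusted p = 1.0e-05), and MMP14, another membrane protease, by 0.23 (adjusted p = 0.0191). MMP14 did not pass without mimic replicate 2 (adjusted p = 0.0751), mimic replicate 3 (0.0551) or control replicate 2 (0.0796), nor after a further quantile normalization (0.115). CD72, a receptor of SEMA4D on B cells, rose by 0.26 (adjusted p = 0.0193). It did not pass without control replicate 1 (adjusted p = 0.0929) or control replicate 2 (0.051). CD72 averaged 7.08 in mimic and 6.82 in control arrays, below the lowest array median, 7.59, so whether it is expressed is not known.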

How the data were processed

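Total RNA of 6 samples was hybridised, 1 single-colour array each. The deposited log2 intensities were normalized by the authors with RMA, per the submitters' processing notes (version and settings unstated in these notes). That they are log2 follows from their range; array medians lie between 7.59 and 7.66. RMA makes arrays alike and compresses dim differences. Of 54675 probe sets, 62 controls were left out. The platform annotation gave gene symbols: 41091 tested probe sets had 1, 1801 several and 11721 none here. Arrays were grouped by their labels and fitted with limma 3.58.1 (lmFit, eBayes) in R 4.3.3, with Benjamini-Hochberg adjustment over 54613 probe sets and a threshold of 0.05. The fit was tested on simulated data. Exact permutation tests used scipy 1.17.1; figures used matplotlib 3.10.9. Members and lists were chosen with earlier results of these data known, so no list is tested as a whole. All 49 measured members are named; values in every array are given for members whose brightest probe set had a called change of at least 0.5 and for all neuropilin probe sets, and others were added after their values were seen. Up to 4 called genes with the largest change are named per pathway list, and every called marker gene. KRT17, TP63, RASA1, CHN2, PAK1, GIPC1 and RHOD were not analysed here. The alternatives tried are in the closing section. The number of arrays limits the precision.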

Additional observations from a re-analysis of the deposited data

How the results depend on the processing

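Over the 48 measured members other than NRP1, 634 of 712 values under alternatives kept their direction and their side of the threshold, 26 lost the call, 17 gained one and 35 changed sign; 19 of these genes changed in neither respect under any alternative run. Of the sign changes, 33 were of genes not called and not called under the alternative either. With a further quantile normalization SEMA7A had 0.0059, PLXNA2 0.0038, PLXNB1 0.0189 and PLXNB3 -0.0246. With median centring SEMA4C had -0.0106, SEMA4F -0.0216, PLXNB3 -0.0211, EFNA3 -0.0025 and UNC5B -0.0039. With array weights SEMA3B had -0.0271, PLXNA2 0.0296, PLXNB1 0.0025 and PLXNB3 -0.0075. With a mean over the probe sets of each gene SEMA4D had 0.1553, SEMA7A 0.1047, PLXNA2 0.0061 and UNC5B -0.0634. With 1 array left out, changes ran from -0.0366 to 0.129 for SEMA3B, from -0.095 to 0.0557 for SEMA3D, from -0.0058 to 0.0432 for SEMA4C, from -0.0423 to 0.0463 for SEMA4F, from -0.1082 to 0.0879 for SEMA7A, from -0.1319 to 0.0305 for PLXNA2, from -0.1088 to 0.0098 for PLXNB1, from -0.0348 to 0.0472 for PLXNB3, from -0.0077 to 0.0523 for EFNA3, from -0.0126 to 0.0534 for UNC5B. The 2 sign changes of called members came from reading a gene at its brightest probe set without shared probes, which uses other probes: PLXNB2 then had 0.0917 and EPHA1 0.0540; among the other genes DPYSL3 had -0.0697, and PLXNA2, not called, had 0.0190. NRP1 kept its call, with changes from -3.53 to -3.37 when 1 array was left out. At an adjusted p under 0.01, 2 members and 5 member probe sets were higher and 20 genes of the pathway lists passed, by construction fewer than 4, 14 and 33. Leaving out 1 array gave 2 to 4 members higher and 9 to 12 lower, and 6 to 15 member probe sets higher; the cause was not tested beyond the smaller number of arrays. Differences between the changes of NRP1 probe sets then lay between -3.67 and -2.12. With probe sets averaged, 6 members were higher and 16 lower. Deviations from the group means correlated between same-numbered arrays with r = -0.11, 0.08 and 0.08. Between differently numbered arrays r ran from -0.19 to 0.12. With 3 arrays per group these values cannot show or exclude pairing, and the replicate numbers were not taken to pair the arrays. In a limma fit with the replicate number as a block NRP1 had -3.46, and 3 members were higher and 12 lower. EPHA4 (adjusted p = 0.0578), SEMA6C (0.0522) and ITGAM (0.0728) did not pass in that fit. With the block 5812 genes passed, against 6013 without it. Among the other named genes, 386 of 418 values kept direction and call. Changes at signals near the lower end of the arrays are limited by signal over background, which was not measured.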
